A study of Drosophila melanogaster with 4 samples.

Results

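Ecdysone, the steroid hormone that times moulting and metamorphosis in insects, acts through a nuclear receptor made of EcR and Ultraspiracle. The receptor switches on a small set of early genes, whose products are transcription factors that in turn control later genes. The best known of these are br, Eip74EF and Eip75B, which were recognised as large puffs of the salivary gland chromosomes. Cap'n collar (CNC) is a basic leucine zipper transcription factor related to vertebrate Nrf2. Detoxification and antioxidant genes are the known targets of its long isoform, which in larval salivary glands has also been reported at puffs of ecdysone-regulated genes. The binding of CNC at the 3 early loci was described here in late embryos, a stage that follows the ecdysone pulse of mid-embryogenesis.

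The loci were set by position and not by any measured value, although earlier results of these data were known when they were chosen. They were 3 intervals on release 5 of the fly genome: chrX:1460000-1570000 for br, chr3L:17550000-17640000 for Eip74EF and chr3L:17940000-18080000 for Eip75B. A listed CNC peak belonged to a locus when its midpoint lay inside the interval. By this rule 24 of the 4758 listed peaks (0.504%) were members, with 17 at Eip75B, 7 at Eip74EF and 0 at br. Release 5 gene models were not used here, so no peak is placed in a promoter, exon or intron, and the fit of the intervals to the genes was not checked. In the RefSeq gene table for release 6, used for gene names and order only, br follows Mur2B and precedes dor by start position among coding genes. In the same table Eip74EF lies between CycT and Vps60, and Eip75B between CG5290 and CG32192.

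The study profiled whole Drosophila melanogaster embryos aged 16 to 24 h by chromatin immunoprecipitation and sequencing, with 2 CNC immunoprecipitation libraries and 2 input DNA libraries. All 4 libraries came from the strain Y cn bw sp. Besides y[1], its genotype is given as oc[R3.2] on X, as cn[1], bw[1], sp[1], Gr22d[1], Gr22b[1] and CG33964[R4.2] on chromosome 2, and as lab[R4.2], LysC[1], Rh6[1], GstD5[1] and MstProx[1] on chromosome 3. The rabbit polyclonal antibody KW0-CNC was raised against a stretch of CNC that holds the basic DNA-binding region, which the CNC isoforms share, so the list does not tell the isoforms apart. Embryos were used whole, and cell types are not separated. The authors' file gives a single score per peak for the whole series. No value per library, spread between replicates or read depth can therefore be set beside the values below, and every comparison is a description of how peaks are arranged in the list. The labels do not say whether the 2 libraries of a group came from separate embryo collections.

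The 3 loci differed in the number of listed peaks. Eip75B carried 12.1 peaks per 100 kb and Eip74EF 7.78, against 3.84 per 100 kb over the whole of 3L between its first and last peak. The br locus carried none, against 3.75 per 100 kb on X, where 59 of 189 other windows of 110 kb (31.2%) also held none. The scores of the members ran from 7.65 to 26.49 and their widths from 203 to 1138 bp, with medians of 12.0 and 326 bp, against 12.51 and 382 bp over the whole list.

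**Figure D1:**
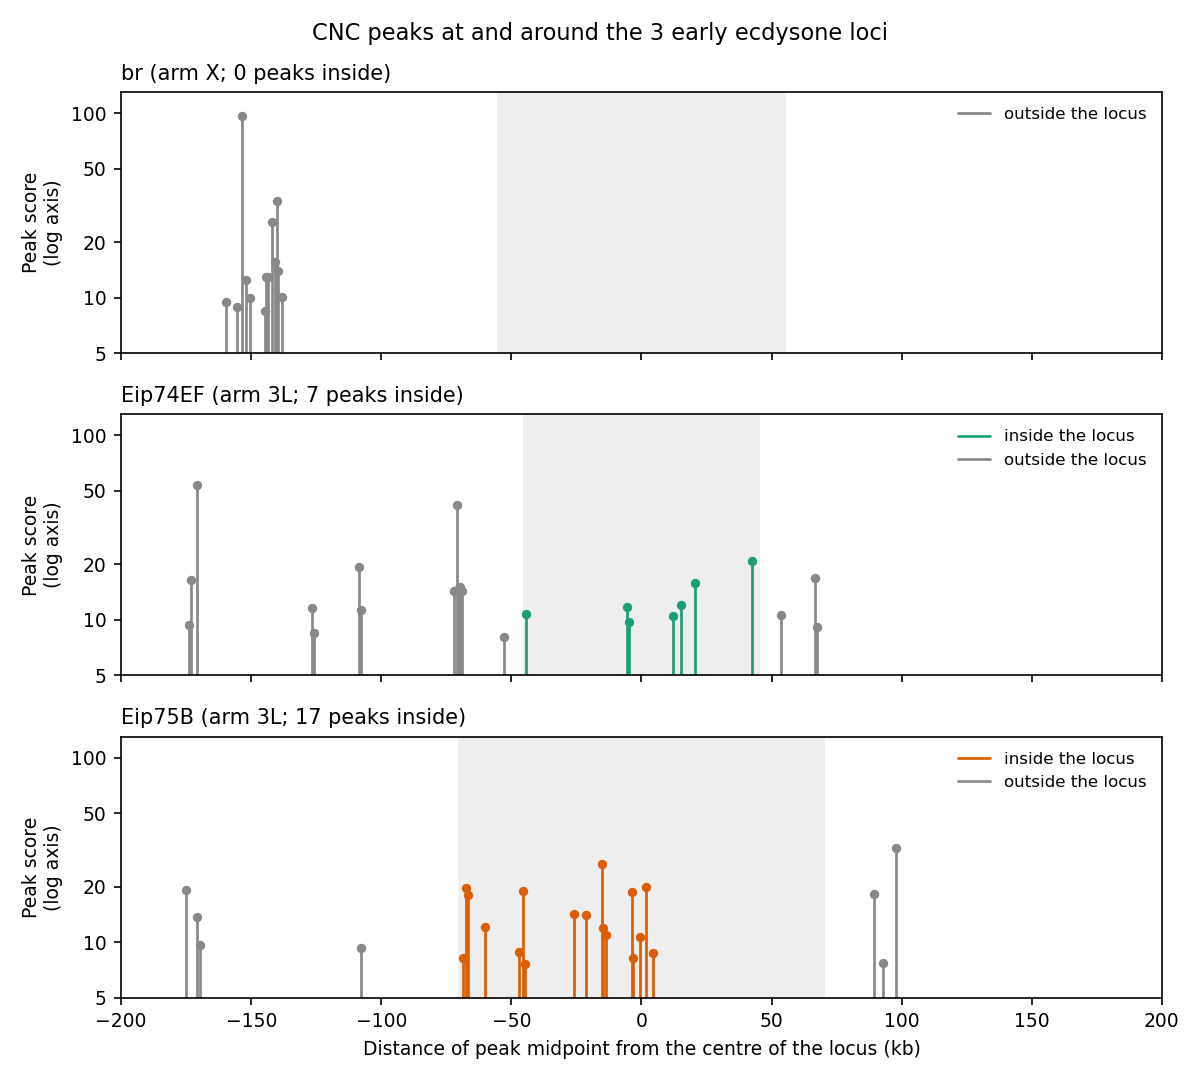
Score of each listed CNC peak (log axis) against the distance of its midpoint from the centre of the locus in kb, for br, Eip74EF and Eip75B from top to bottom. The shaded band is the locus, coloured stems are the peaks inside it and grey stems those outside. The br band holds 0 peaks, Eip74EF has 7 spread over its band, and the 17 of Eip75B fill the left part of theirs.

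Eip75B encodes a nuclear receptor that binds haem and acts downstream of the ecdysone receptor, and its locus was the richest in peaks. Its 17 peaks ranged in score from 7.65 to 26.49 with a median of 12.03 (exact 95% order-statistic interval 8.86 to 18.63, which treats peaks as independent). The other 857 peaks of 3L had a median score of 12.33, which lies inside that interval. The median width was 314 bp (interval 233 to 459 bp) at Eip75B and 383 bp in the rest of 3L. Together the 17 peaks covered 7044 bp, or 5.03% of the locus, against 2.32% of 3L.

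The highest-scoring peak of the locus ran from 17994304 to 17995018, 715 bp wide, with a score of 26.49. It ranked 560 in the list and 107 among the peaks of 3L. Next came a peak of 459 bp from 18011393 to 18011851, which scored 19.82, and a narrow one of 314 bp from 17942347 to 17942660, which scored 19.59. Both were high for their width, as 8.23% of listed peaks with a width within 10% of 459 bp scored as high or higher, and 2.31% of those near 314 bp did. A peak of only 205 bp, from 17988451 to 17988655, scored 14.02, a level reached by 3.88% of listed peaks of like width. Some other peaks of the locus were low for their width. For those scoring 8.25, 8.86, 7.65, 8.24 and 8.76 this share was 85.2%, 69.2%, 93.0%, 80.5% and 78.2%.

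The widest peak at Eip75B spanned 1138 bp from 17963998 to 17965135 with a score of 18.86, below the median of 22.3 for listed peaks of like width. The next widest measured 802 bp, from 17943013 to 17943814 (score 18.05), and 715 bp, the peak with the highest score. A peak of 713 bp from 18005996 to 18006708 was almost as wide and scored 18.63. Each of these 4 wider peaks had a narrower neighbour within 1000 bp. The weakest peak of the locus (score 7.65, width 218 bp) was separated by 81 bp from the end of the widest one.

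The Eip75B peaks fell into small groups. When neighbours with edges under 5 kb apart were joined, the 17 peaks formed 6 groups. The largest held 5 peaks over 8588 bp, from 18005996 to 18014583, with scores from 8.24 to 19.82. A group of 3 from 17994304 to 17996441 held the strongest peak, and another 3 lay from 17941189 to 17943814 and from 17962978 to 17965434. A pair from 17983746 to 17988655 scored 14.15 and 14.02, and a single peak from 17949759 scored 12.03. Of the 16 distances between neighbouring edges, 11 were under 5 kb, 7 under 1000 bp and 3 under 200 bp. Past the last peak, which scored 8.76 and ended at 18014583, no peak was listed for 84.3 kb, so the interval was empty for the 65.5 kb from the last midpoint to its right bound.

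Eip74EF encodes transcription factors with an ETS DNA-binding domain, and its 7 peaks were spread more widely. From left to right, the first, from 17550384 to 17550815, scored 10.71 and was 432 bp wide. After an empty stretch of 38.5 kb came a pair, from 17589266 to 17589589 (score 11.71, width 324 bp) and from 17590051 to 17590343 (score 9.75, width 293 bp). Of the 6 distances between neighbouring edges at Eip74EF, that inside the pair was the 1 under 1000 bp.

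Further right, 3 peaks formed a loose group of 8954 bp. Their scores increased along the chromosome, at 10.44 from 17606951 to 17607318 (368 bp), 12.04 from 17609946 to 17610183 (238 bp) and 15.78 from 17615082 to 17615904 (823 bp, the widest peak of the locus). For the peak of 238 bp, 20.0% of listed peaks of like width scored as high or higher. At the locus this share was 28.7% for the strongest peak and 44.4% for the peak scoring 11.71. It was above 50% for the rest, at 74.2%, 65.5%, 68.3% and 60.5% from left to right. The strongest peak stood alone, from 17637178 to 17637985, 808 bp wide and with a score of 20.79. It ranked 867 in the list and 153 on 3L. The median score at Eip74EF was 11.71, with the interval covering all 7 values from 9.75 to 20.79, against 12.34 over the other 867 peaks of 3L. The median width was 368 bp at Eip74EF and 379 bp in the rest of 3L.

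Over both loci on 3L, 10 of the 24 members scored above the list median of 12.51 (41.7%), against 49.9% of all listed peaks. The upper quartile of 17.6 was passed by 7 members (29.2%), 6 at Eip75B and 1 at Eip74EF, against 25% of the list. No member was among the 10.0% of listed peaks with the highest scores. Of all listed peaks 4.52% were 2000 bp or wider. None of the 24 members was. A count of 0 of 24 would still allow a share of up to 12.5%, an approximate 95% bound that treats peaks as independent. Set against listed peaks within 10% of their own width, 14 of the 24 members were in the higher-scoring part, where under 50% of those peaks reached their score (58.3%, against 50% of all listed peaks).

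**Figure D2:**
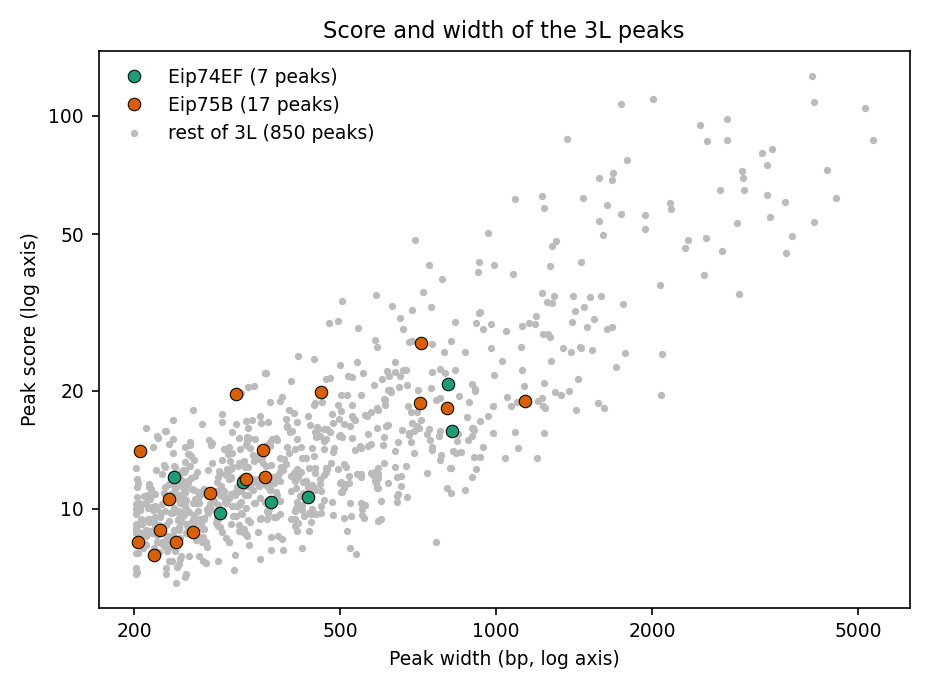
Score against width (both log axes) for the 7 peaks of Eip74EF and the 17 of Eip75B in colour and for the other 850 peaks of 3L in grey, with 1 point per peak. The members lie within the cloud of 3L peaks, at widths of 203 to 1138 bp and scores of 7.65 to 26.49, and none is among the broad, high-scoring peaks at the upper right.

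The loci were then set against windows of their own size, laid end to end along the same arm from the locus outward. The 2 loci on 3L were not left out of each other's windows. Those for Eip74EF included 17910000 to 18000000 and 18000000 to 18090000, over Eip75B, with 12 and 5 peaks. Those for Eip75B included 17520000 to 17660000, over Eip74EF, with 14 peaks. By number Eip75B was fuller than most windows of 3L. Its 17 peaks were matched or exceeded in 8 of 161 other windows of 140 kb (4.97%), and the median window held 4 peaks (middle 50% from 1 to 8). This share was 7.98% with the bounds moved in by 10 kb, where 13 peaks remained, 7.75% against windows of all 5 large arms, and 2.48% with the 25% of peaks of highest score. The fullest, from 9400000 to 9540000, held 27. By covered bases Eip75B stood lower, with its 7044 bp reached in 20 windows (12.4%), against a median of 2001 bp. By highest score it was ordinary: 70 windows (43.5%) held a peak scoring 26.49 or more, and the median of the windows' highest scores was 21.6.

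For Eip74EF, 44 of 251 other windows of 90 kb (17.5%) held 7 peaks or more, and the median window held 2 (middle 50% from 0 to 5). That share was 7.97% after merging peaks under 1000 bp apart, and it was 38.2% when only the top 50% of peaks by score were kept and 43.4% with the top 25%. Its 3286 covered bp were reached in 57 windows (22.7%), against a median of 873 bp. Its highest score of 20.79 was reached in 91 windows (36.3%), against a median of 15.3. The fullest 90-kb window of 3L, from 8640000 to 8730000, held 21 peaks.

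**Figure D3:**
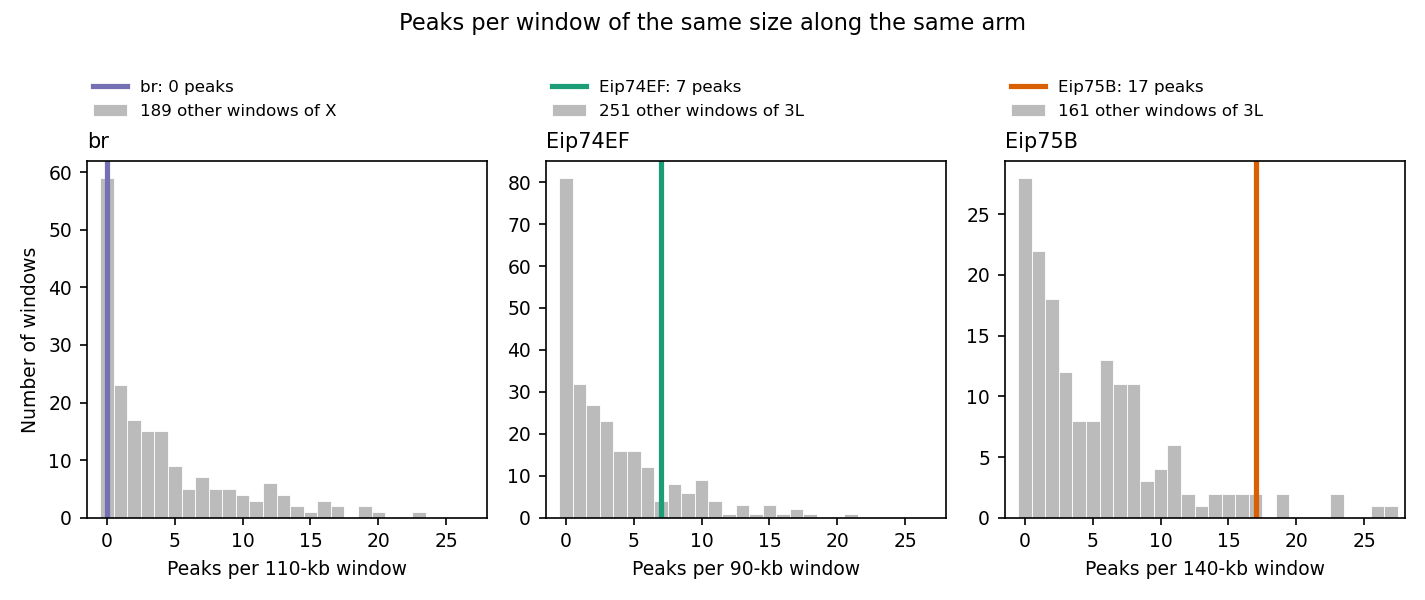
Number of listed peaks per window of the same size along the same arm, for br (110 kb, X), Eip74EF (90 kb, 3L) and Eip75B (140 kb, 3L). Grey bars count the other windows of the arm and the coloured line marks the locus. The br line at 0 falls on the tallest bar, Eip74EF at 7 is right of most windows and Eip75B at 17 is in the thin right tail.

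In number against strength, both 3L loci held more peaks than the median window. Their strongest peaks scored below the median highest score of windows with about as many, by more at Eip75B than at Eip74EF. Among the 8 other windows of 140 kb with 15 to 19 peaks, the highest score per window had a median of 74.6 and ranged from 19.79 to 104.75. In 7 of the 8 it exceeded the 26.49 of Eip75B, all 8 covered at least as many bases, and 4 contained a peak of 2000 bp or more. For Eip74EF, 31 of the 46 other windows with 5 to 9 peaks reached its highest score of 20.79, and the median over the 46 was 29.6. Of these 46, 25 covered at least as many bases as Eip74EF and 10 contained a peak of 2000 bp or more. By these measures Eip74EF was ordinary among its windows. This comparison by like number, within 2 peaks of the locus, was added after the values had been seen. Peaks of 1 window share their surroundings, and the choice of windows gives no measure of error.

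**Figure D4:**
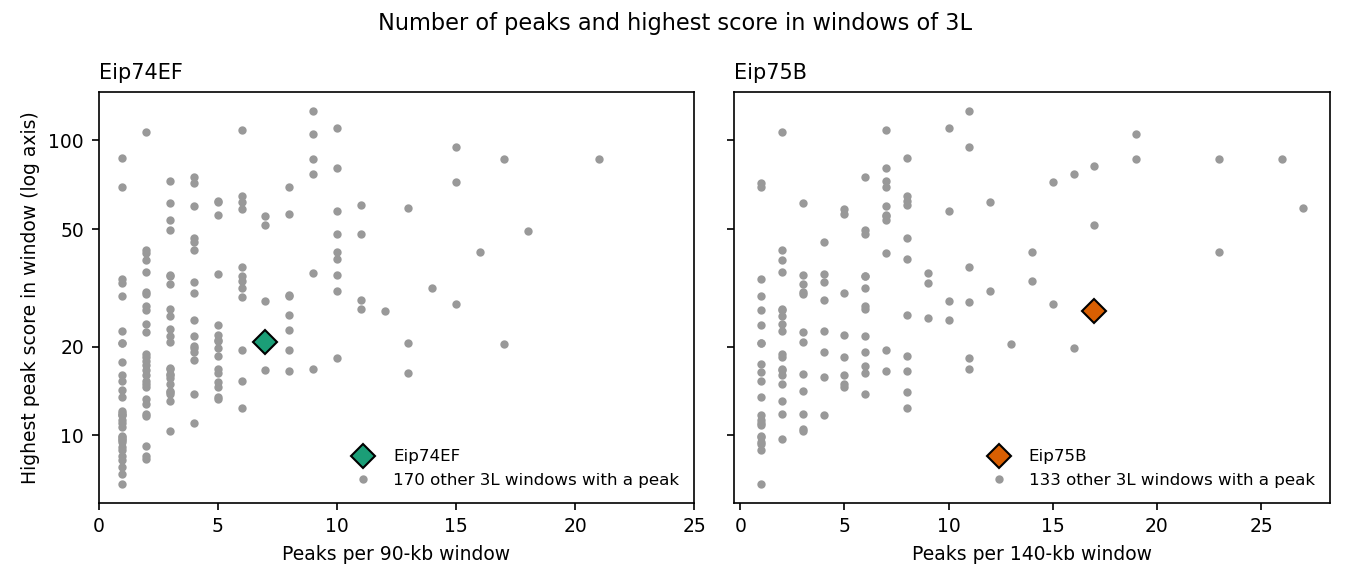
Highest peak score in a window (log axis) against the number of peaks in it, for the other windows of 3L with at least 1 peak (grey points) and for Eip74EF (90-kb windows, left) and Eip75B (140-kb windows, right) as diamonds. At 17 peaks and a highest score of 26.49, Eip75B lies below 7 of the 8 windows with 15 to 19 peaks.

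The br gene encodes a family of BTB zinc finger proteins made by alternative splicing. Its interval of 110 kb held no listed peak and lay wholly inside a longer empty stretch. The nearest peak on the left ended at 1376847, 83.2 kb before the interval, with a score of 10.06, and the nearest on the right began at 1722227, 152 kb after it, with a score of 12.74. Moving the interval left by up to 83 kb or right by up to 152 kb would therefore bring in no whole peak. The peak numbers in the authors' file ran on across this stretch, from 4035 to 4036, and without a break over the whole list.

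Empty windows were common on X. Of 189 other windows of 110 kb, 59 (31.2%) held no peak, the median window held 2 peaks, and the fullest, from 2450000 to 2560000, held 23. The stretch around br measured 345 kb. An empty interval of 110 kb lies by construction in a stretch at least that long. Of the 60 such distances between neighbouring peaks on X, with a median of 195 kb, that of br was the 9th longest. Longer stretches also have more room for such an interval, so this rank and median do not show that the br stretch was unusually long. A peak below the authors' threshold would not be listed, and the sources used here give neither the threshold nor the read depth, so the list shows no called peak at br and not the absence of CNC.

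The surroundings of the loci also differed. Within 100 kb to the left of br lay 11 peaks, led by one from 1359793 to 1362771 that scored 96.23 and ranked 63 in the list, and within 100 kb to the right lay none. Left of Eip74EF 10 peaks lay within 100 kb, and the strongest, from 17523445 to 17524434, scored 41.83, above the 20.79 of the strongest peak inside the locus. Right of Eip74EF 3 peaks lay within 100 kb, with a highest score of 16.82. Eip75B had 2 peaks within 100 kb on its left and 3 on its right, and the strongest of these, from 18107345 to 18108093, scored 32.56, above the 26.49 inside. Only 7 peaks lay in the 300 kb between the intervals of Eip74EF and Eip75B, which is less than the 17 in the 140 kb of Eip75B.

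The bounds of the intervals decided a few members. At Eip74EF the first peak had its midpoint 0.60 kb inside the left bound, and the nearest excluded one, from 17541937 to 17542269 with a score of 8.11, ended 7.73 kb outside it. The last and strongest peak of Eip74EF was 2.42 kb inside the right bound, and the next, from 17648494 with a score of 10.68, began 8.49 kb beyond it. At Eip75B the first peak, with a score of 8.25, was 1.31 kb inside the left bound, and the nearest excluded peaks, scoring 9.35 and 18.26, lay 37.7 kb to the left and 18.9 kb to the right.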

How the data were processed

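Each sample's group was taken from its title. The data are 1 peak list for the series, on FlyBase release 5 per the file headers, with MACS named as its source. The submitters' processing notes name BWA, MACS2, the build BDGP5 and CASAVA in versions 1.7.0.2 and 1.7.0.3. The deposited score of each peak is the authors' value. The sources used here give neither its statistic nor the peak threshold, nor whether libraries were pooled, so it served only to describe and rank peaks within the list. Read depth is unknown.

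Loci were fixed intervals, and a peak's position was its midpoint. Windows of the same size were laid end to end from each locus, inside the span from the first to the last peak of the arm. Where a locus had 12 or fewer peaks all were named, otherwise the 5 highest-scoring and the 3 widest, together with those at and beyond the bounds. Peaks and windows named beyond this rule were chosen after their values were seen. The members and lists were chosen with earlier results of these data known. No test was run, because the list holds no replicate values, and peaks and windows are not replicates. Window counts, covered bases and merging were tested on simulated lists. Python 3.11.15, numpy 2.4.6, pandas 2.3.3, scipy 1.17.1 and matplotlib 3.10.9 were used. No DNA sequence is shown, since no release 5 genome was used here.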

Additional observations from a re-analysis of the deposited data

How the results depend on the processing

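An empty locus fixes 40 br values in advance: its count of 0, since the nearest peaks lie too far off for any alternative to add one, and its shares of windows with at least 0 peaks, covered bases or score. Of the other 118 values under the alternatives, 98 stayed close to the value given above and 20 did not. Close meant within 1.5 times (counts and ranks) or inside the 95% binomial interval (shares and medians) of that value. This interval treats windows or peaks as independent, which they are not, so it served only as a yardstick and not as a measure of error. Some of the 98 could hardly move, so their number overstates stability. The score cuts of 12.51 and 17.6 lie below the highest scores of 20.79 and 26.49. They left the shares by highest score unchanged by construction. Merging peaks under 1000 bp apart removes only short distances, so the br stretch kept rank 9. The Eip75B share among windows of like number was judged against an interval of 47.3% to 99.7%, from 8 windows. The 50% of peaks with the highest scores left 2 peaks at Eip74EF and 8 at Eip75B, and the highest 25% left 1 and 6, fewer by construction. For Eip74EF the share of windows with as many peaks was then 38.2% and 43.4%, and with as many covered bases 31.9% and 36.3%. For Eip75B the share by peak number was 6.21% and 2.48%, and it was 7.98% with bounds moved in by 10 kb and 7.75% against all 5 large arms. Windows of X with no peak became 42.3% and 54.5%, and 38.4% with bounds moved in by 10 kb. With the highest 50% and 25% of peaks the br stretch ranked 14 and 17 on X. Merging peaks under 1000 bp apart left 10 at Eip75B, and 7.97% of windows matched Eip74EF by number. With only windows that hold a peak, the shares for Eip74EF were 25.9% by number, 33.5% by covered bases and 53.5% by highest score, and 52.6% by highest score for Eip75B, by construction. Bounds moved in by 10 kb gave 22.8% for Eip74EF by number. The br shares of empty windows, the rank of its stretch and the windows of like number were added after seeing the data. No paired analysis was possible because the file lists peaks once for all libraries, which also means that leaving out a replicate was not possible. Without read depth, sites below the authors' threshold cannot be counted.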

Other observations

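Both 3L loci lay in 1 stretch between long distances with no peak, chosen here after its values were seen. It ran from 17420970 to 18108093 (687 kb) and held 47 peaks, the 24 members and 23 others. On its left no peak was listed for 370 kb, the 7th longest such distance of 3L, and on its right for 506 kb, the 2nd longest. The strongest peak of the stretch was not a member: a site from 17422068 to 17426179 scored 53.75 and was the only one of the 47 that measured 2000 bp or more. The 24 members had a median score of 12.0 and the 23 others 14.3.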
